A study of Mus musculus with 4 samples.

Results

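Adipokines are proteins that fat tissue releases into the blood or its surroundings. The set described here was chosen by symbol and comprises leptin (Lep) and 7 other products of fat, namely Adipoq, Retn, Cfd, Rbp4, Nampt, Apln and Nnat. A probe set belonged to it when the annotation of the array named 1 of these symbols and no other gene, which gave 5 genes of the 8, with 1 probe set each, out of 17097 genes with a probe set of their own. These 5 were Lep, Adipoq, Retn, Rbp4 and Apln, and no value is given for Cfd, Nampt and Nnat, which the annotation used here does not name. The symbols were chosen with the difference between the genotypes already known, so the members' differences are given as a description, with no test.

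Expression was measured on 4 Affymetrix arrays of intact inguinal mammary gland, the fat pad with its small epithelial tree, taken at postnatal day 10. A pair of arrays came from global knockouts, Mt2-mmp(-/-), labelled as lacking a membrane-anchored matrix metalloproteinase (Mmp15) in every tissue, and a pair from wild-type littermates, Mt2-mmp(+/+), all on a congenic C57Bl/6J background. The labels call the arrays of a genotype biological replicates and do not say whether RNA of several mice was pooled, nor the sex of the mice, and the genotype was not checked on Mmp15 itself, for which the annotation used here lists no probe set. Errors here therefore measure the spread between these arrays. The question is how expression in the early postnatal gland differs without Mt2-mmp. All values are log2 expression values, differences are knockout minus wild type on that scale, and n = 2 arrays per genotype.

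Leptin is a hormone secreted by fat cells that reports energy stores to the brain and acts through the receptor Lepr, the kinase Jak2 and the transcription factor Stat3, with Socs3 as a feedback inhibitor. Adiponectin (Adipoq) is an abundant fat-cell protein that acts through Adipor1, Adipor2 and the cadherin Cdh13. Resistin (Retn) is made by fat cells in rodents, Rbp4 carries retinol in the blood and comes from liver and fat, and Apln encodes apelin, the ligand of the receptor Aplnr on endothelial cells. In the mammary gland fat cells surround the growing ducts, and the same cells make hormones and store lipid.

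The sequences around the starts of Lep, Adipoq and Retn are shown because these 3 hormones, all products of fat cells, gave the largest difference, the smallest difference and a small opposite difference. Each window covers 250 bases before the gene's start and 50 after it, on the plus strand of GRCm38.p6, from RefSeq: chr6:29059971-29060270 for Lep, chr16:23146286-23146585 for Adipoq and chr8:3655520-3655819 for Retn. Capitals mark matches, on either strand, to 4 motifs: TTNNGNAA (the C/EBP family, where N is any base), TATAA (the TATA box), CCAAT and GGGCGG (the GC box).
Lep: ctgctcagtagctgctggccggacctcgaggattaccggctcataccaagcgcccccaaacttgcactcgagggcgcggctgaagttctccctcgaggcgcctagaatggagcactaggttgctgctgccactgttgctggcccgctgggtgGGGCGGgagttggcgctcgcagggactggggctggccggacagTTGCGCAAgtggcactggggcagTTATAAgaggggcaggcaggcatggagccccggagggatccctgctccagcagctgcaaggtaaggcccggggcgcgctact
Adipoq: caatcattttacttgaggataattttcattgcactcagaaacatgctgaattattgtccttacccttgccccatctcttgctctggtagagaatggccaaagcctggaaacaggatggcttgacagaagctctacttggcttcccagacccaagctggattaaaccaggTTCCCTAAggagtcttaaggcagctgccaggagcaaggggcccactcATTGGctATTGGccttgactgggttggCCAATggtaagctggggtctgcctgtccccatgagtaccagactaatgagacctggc
Retn: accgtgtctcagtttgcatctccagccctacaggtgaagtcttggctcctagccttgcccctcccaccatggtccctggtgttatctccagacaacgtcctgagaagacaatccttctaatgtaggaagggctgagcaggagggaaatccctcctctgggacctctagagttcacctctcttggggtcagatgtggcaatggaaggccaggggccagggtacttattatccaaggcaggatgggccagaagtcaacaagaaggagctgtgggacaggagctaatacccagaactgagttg

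In the Lep window the C/EBP motif begins 55 bases before the start and reads the same on both strands. It is followed by TATA motifs of both strands, which overlap and begin 32 and 31 bases before the start, and preceded by a GC box at 98. The Adipoq window holds 1 C/EBP motif at 81 bases before the start and 3 CCAAT motifs at 34, 27 and 7. The Retn window holds no match to these letters. The other adipokine genes lie at chr19:38116620-38125321 (Rbp4) and chrX:48025146-48034853 (Apln) of the same assembly. Their windows are not shown. Both windows of Rbp4 held C/EBP matches, 1 of them with TATA and GC box matches and the other with a CCAAT match. The window of Apln held a GC box match. Among 32851 windows of the same 300 bases around gene starts, 40.7% held the C/EBP motif, 24.9% the TATA motif, 37.4% the CCAAT motif and 35.7% the GC box, so each motif is common, and a match is a description only.

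Lep was higher in both knockouts than in both wild types. Its log2 value was 8.15 in knockout 1 and 8.16 in knockout 2, while wild type 1 stood at 6.72 and wild type 2 at 5.20. The knockout arrays were nearly level, the wild-type arrays lay far apart, and the genotypes did not overlap. Knockouts averaged 8.15 ± 0.0045 and wild types 5.96 ± 1.08 (SD, n = 2), for a difference of 2.19 (SE 0.466), or 4.56-fold. Of 45037 probe sets 6, or 0.0133%, Lep included, differed by at least as much in either direction, and 43, or 0.0955%, by at least 1. The gap of 1.52 between the wild-type arrays was also unusual for the file, since 0.124% of probe sets had wild-type arrays at least that far apart.

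The size of the Lep difference depended on which wild-type array stood for the genotype. It was 1.43 without wild type 2 and 2.95 without wild type 1, and it stayed at 2.19 when either knockout was left out. The arrays carry 23 nonspecific control probe sets with medians of 3.26 to 3.28, and 1 of these, at 6.78 to 6.96, lay above Lep in both wild types and below it in both knockouts. Low values are compressed by the authors' summary method, and the fold of Lep rests on wild-type values below the brightest nonspecific control. In whole tissue, fewer cells of a type and less RNA per cell cannot be told apart.

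**Figure D1:**
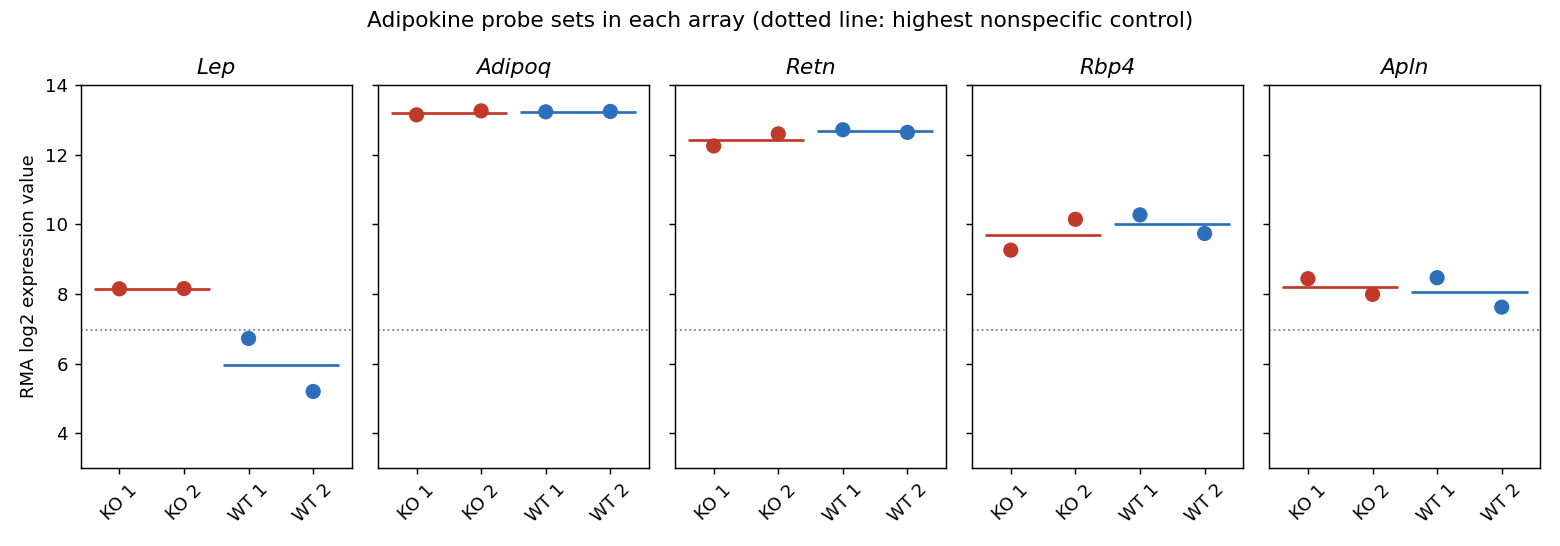
Log2 expression value of each adipokine probe set (vertical axis) in knockout arrays 1 and 2 (KO, red) and wild-type arrays 1 and 2 (WT, blue), with horizontal bars at the mean of each genotype and a dotted line at the highest nonspecific control value of 6.96. Lep is at 8.15 and 8.16 in knockouts and at 6.72 and 5.20 in wild type, while Adipoq stays between 13.14 and 13.26 in all 4 arrays.

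Adipoq did not share the pattern of Lep. Its log2 values were 13.14 and 13.26 in knockouts 1 and 2 and 13.23 and 13.24 in wild type 1 and 2. All 4 arrays fell within 0.114 of each other, the genotypes overlapped, and the difference was -0.04 (SE 0.074). The brightest probe set of any array lay between 13.39 and 13.42, so Adipoq was close to the top of the scale, where differences are also compressed.

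Retn was slightly lower in knockouts. Its knockout arrays 1 and 2 stood at log2 values of 12.25 and 12.60, and its wild-type arrays 1 and 2 at 12.71 and 12.64. Knockout 1 was the low array, and knockout 2 lay just under wild type 2, so the genotypes did not overlap. The difference was -0.25 (SE 0.126), or 1.19-fold lower, and it was -0.08 without knockout 1 and -0.43 without knockout 2.

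Rbp4 differed more within a genotype than between genotypes. Its log2 value was 9.26 in knockout 1, 10.14 in knockout 2, 10.27 in wild type 1 and 9.74 in wild type 2. Knockout 1 and wild type 2 were the lower arrays, knockout 2 and wild type 1 the higher ones. The difference was -0.30 (SE 0.320), with means of 9.70 ± 0.625 and 10.00 ± 0.378 (SD, n = 2), and it turned to 0.14 without knockout 1 and was -0.75 without knockout 2 and -0.04 without wild type 1. The list of hair follicle and epidermis markers split the arrays into the same pairs, in the opposite direction to Rbp4. The median of its 18 genes, each centred on its own mean, reached 1.00 in knockout 1 and 0.71 in wild type 2 but was -0.885 in knockout 2 and -0.823 in wild type 1. Trichohyalin (Tchh), a hair sheath protein, had log2 values of 10.74 and 10.37 in the first pair and 3.49 and 4.03 in the second. Not every marker split. The epidermal keratin Krt10 had 7.16 and 7.22 in knockouts 1 and 2 and 7.20 and 7.17 in wild type 1 and 2. The epidermal genes Krt1 and Flg were dim and also level. The part of hair follicle in the Rbp4 values was not tested.

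Apln also varied mostly within genotypes. Its log2 value was 8.44 in knockout 1, 7.99 in knockout 2, 8.47 in wild type 1 and 7.62 in wild type 2. The arrays numbered 1 were nearly level and both lay above the arrays numbered 2. The difference was 0.17 (SE 0.298), with means of 8.21 ± 0.318 and 8.05 ± 0.597 (SD, n = 2), and it was 0.59 without wild type 1, -0.25 without wild type 2 and -0.06 without knockout 1.

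Side by side, 2 of the 5 adipokines had a difference above 0 and 3 below it. By limma with Benjamini-Hochberg adjustment over 45037 probe sets, 0 of the 5 passed an adjusted p of 0.05, beside 0.00444% of all probe sets (2 of them, while 2994, or 6.65%, had an unadjusted p under 0.05). The genotypes did not overlap with knockouts higher in 1 member, Lep, beside 17.8% of all probe sets, and with knockouts lower in 1 member, Retn, beside 18.6%. Because the members were chosen on this contrast, nothing is read from these counts. The median size of the difference, its sign left aside, was 0.254 over the 5 members and 0.067 over all probe sets. For the same reason nothing is read from these medians.

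**Figure D2:**
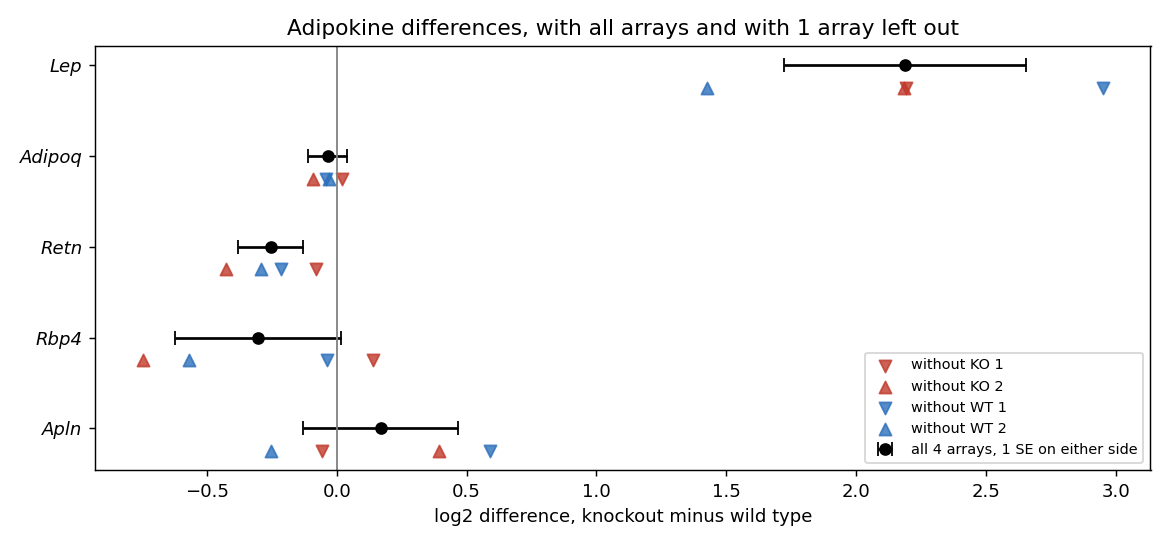
Log2 difference, knockout minus wild type (horizontal axis), of each adipokine with all 4 arrays (black point, bar of 1 SE on either side) and with 1 array left out (triangles, coloured by the genotype of the array left out). Lep stays above 0 at 1.43 to 2.95, Retn stays below 0 at -0.43 to -0.08, and Rbp4, Apln and Adipoq fall on both sides of 0.

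The genes whose values over the 4 arrays came closest to those of Lep were found by the Euclidean distance between values centred on each gene's mean, among 17096 other genes. The nearest was Tmem45b, a membrane protein, at a distance of 0.525, with log2 values of 9.02 and 9.38 in knockouts 1 and 2 and 7.26 and 6.30 in wild type 1 and 2. The second was Sncg, gamma-synuclein, at 0.708, with 10.69 and 11.68 in knockouts and 9.62 and 8.28 in wild type. The third was Ucp1, the uncoupling protein of brown fat, at 0.824, with 11.73 and 11.35 against 10.28 and 9.53. Mup3, a major urinary protein, and Cpn2, a subunit of carboxypeptidase N, followed at 1.23 and 1.30. In all 5 the lowest array was wild type 2, as for Lep, and both knockouts lay above both wild types. These genes were picked for their likeness over 4 arrays, so their own differences are no further evidence.

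Rbp4, the other adipokine that spanned at least 1 log2 unit, had the nearest patterns in Snhg11 (distance 0.271), Bcl2l10 (0.273), Insig1 (0.286), H3c1 (0.309) and Cdc25b (0.309). Insig1, a regulator of sterol synthesis in the endoplasmic reticulum, had log2 values of 8.86 and 9.51 in knockouts 1 and 2 and 9.49 and 9.03 in wild type 1 and 2. In each of the 5 genes knockout 1 was the lowest array, as for Rbp4.

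**Figure D3:**
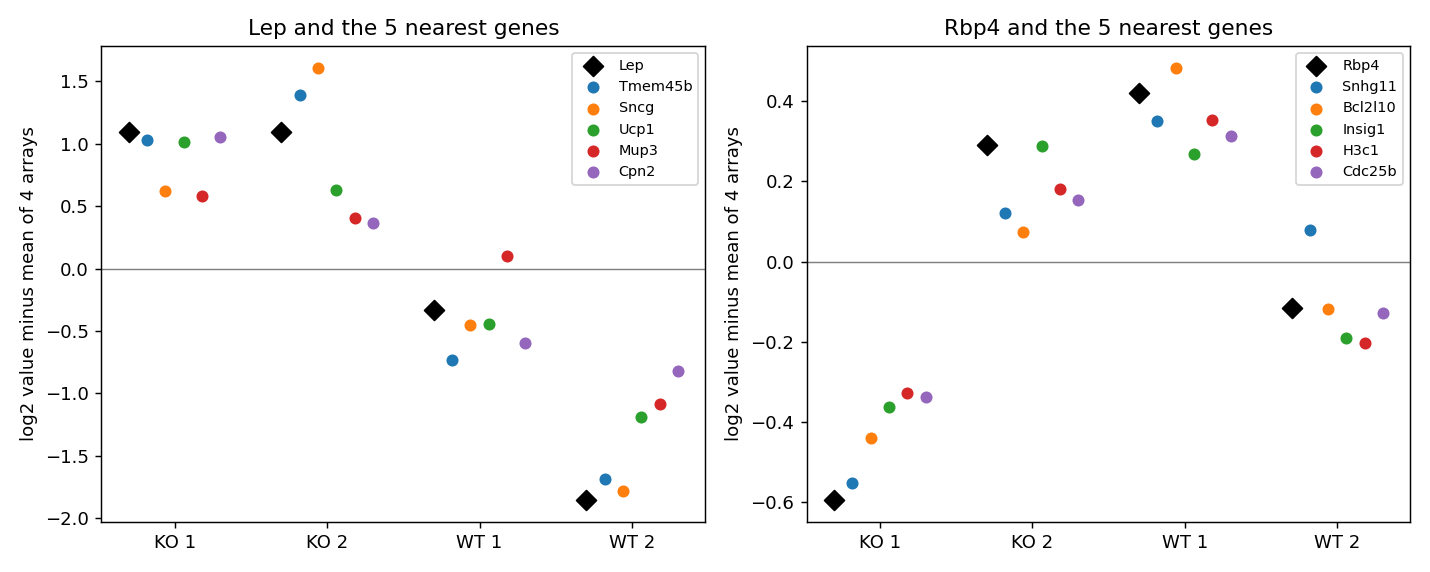
Log2 value minus the gene's mean of 4 arrays (vertical axis) in each array (horizontal axis) for Lep and Rbp4 (black diamonds) and the 5 genes nearest to each (coloured points). Around Lep both knockouts lie above both wild types and wild type 2 is lowest, whereas around Rbp4 knockout 1 is lowest in all 5 genes.

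Genes of mature fat cells went both ways. Of 27 measured genes of mature fat cells, with the adipokines left out, 17 had a difference above 0 and 10 below it, with a median of 0.017, and 0 passed the limma threshold in either direction (10 of 27, or 37.0%, at an unadjusted p under 0.05). Over all 17097 genes 48.8% had a difference above 0, the median was -0.0022, 7.36% lay at an unadjusted p under 0.05 by limma and 1 passed, in the lower direction. These shares are the background for the counts of every list below. The genotypes did not overlap in 14 of the 27 genes, 9 with knockouts higher and 5 lower, or 51.9%, beside 37.6% of all genes. Among these 14, chosen after their values were seen, were Scd1, a fatty acid desaturase, at 0.60 (SE 0.214), and Fasn, fatty acid synthase, at -0.32 (SE 0.092). Fabp4, the fatty acid binding protein of fat cells, had log2 values of 13.39 and 13.40 in knockouts and 13.41 and 13.35 in wild type. These values lie at the top of the scale, where differences are compressed. Other probe sets of Fabp4 had differences of 0.30 and 0.02, and the first had 11.54 and 12.03 against 11.39 and 11.58. The fat-cell master regulator Pparg had 10.78 and 10.77 against 11.01 and 10.75, and hormone-sensitive lipase (Lipe) had 10.81 and 11.13 against 10.84 and 11.02. In these 3, named for their roles, the genotypes overlapped. The summed level of the list, on the log2 scale, was 16.05 and 16.17 in knockouts and 16.04 and 15.98 in wild type. The list median was 0.096 without knockout 1, -0.020 without knockout 2, 0.031 without wild type 1 and 0.067 without wild type 2.

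Within this list Cebpb, a transcription factor of fat-cell differentiation and a member of the C/EBP family, had the smallest unadjusted p. Its log2 values were 11.10 and 11.12 in knockouts 1 and 2 and 10.58 and 10.61 in wild type 1 and 2, a difference of 0.51 (SE 0.066, limma adjusted p = 0.512), which did not pass. Of its 2 other probe sets, 1 had 0.63 and the dimmer had 0.08. Cebpa, another member of the family, had 0.09 (SE 0.097). Dgat2, which makes triglyceride, had 0.53 (SE 0.118, limma adjusted p = 0.697), and Klf15, a transcription factor of fat-cell metabolism, had -0.28 (SE 0.076, limma adjusted p = 0.721).

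Other secreted products of fat did not move as Lep did. Of 35 measured, 22 had a difference above 0 and 13 below, with a median of 0.035, and 0 passed by limma. An unadjusted p under 0.05 by limma was found for 7, or 20%, beside 7.36% of all genes. The genotypes did not overlap in 20 of the 35, or 57.1%, beside 37.6% of all genes. Of these, 11 had knockouts higher and 9 lower. Adm, which encodes the vasodilator peptide adrenomedullin, had log2 values of 7.63 and 8.02 in knockouts and 7.11 and 7.06 in wild type, a difference of 0.73 (SE 0.135, limma adjusted p = 0.673). Cthrc1, a secreted collagen-associated protein, had 0.45, and Sfrp5, a secreted Wnt inhibitor, had 0.23. The median of these products was 0.077 when knockout 1 was left out, 0.079 when wild type 1 was and 0.055 when wild type 2 was.

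On the receiving side of leptin, Lepr lay at 5.19 and 5.08 in knockouts and 5.15 and 5.05 in wild type, a difference of 0.04 (SE 0.078). Its 3 other probe sets had 0.17, 0.02 and 0.01, and 1 of the 23 nonspecific controls was above Lepr in every array, so the receptor was dim. Jak2 had -0.07 (SE 0.074), Stat3 had -0.11 (SE 0.083) and Socs3, which leptin signalling induces, had -0.06 (SE 0.109). Socs3 was dim too, at 5.06 to 5.32, with 1 of the 23 nonspecific controls above it in every array. Of 16 measured genes of leptin signalling 8 lay above 0 and 8 below, with a median of -0.0034, and 0 passed (1 at an unadjusted p under 0.05 by limma). That gene was Irs1, an adaptor of the insulin receptor, at -0.24 (SE 0.077, limma adjusted p = 0.727). The list median was -0.0077 without knockout 1, 0.030 without knockout 2, 0.026 without wild type 1 and -0.031 without wild type 2.

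For adiponectin, Adipor1 had a difference of 0.04 (SE 0.069), with -0.11 and 0.02 in its other probe sets, and Adipor2 one of -0.14 (SE 0.087), with Adipor2 at 11.21 and 11.39 in knockouts and 11.41 and 11.48 in wild type. The arrays of the genotypes did not overlap for either receptor, as for 37.6% of all genes. For Adipor1 the separation was slight, with knockout 2 at 9.888 and wild type 2 at 9.886. In the Adipor1 probe set with -0.11 the genotypes overlapped, at 7.33 and 7.53 in knockouts and 7.49 and 7.59 in wild type. Cdh13 had -0.11 (SE 0.1004). Of 13 genes of this list 4 lay above 0 and 9 below, with a median of -0.042 (-0.027 without knockout 1), and 0 passed (2 at an unadjusted p under 0.05 by limma). Ppara, a nuclear receptor that adiponectin signalling can engage and that also drives fat oxidation, stood at the upper end with 0.84 (SE 0.194, limma adjusted p = 0.699). Ppara was also in the thermogenic fat list.

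Retnla, a paralogue of resistin that is made in fat tissue and by macrophages, had log2 values of 11.02 and 10.86 in knockouts and 11.41 and 11.23 in wild type. Both knockouts were lower than both wild types, and the difference was -0.38 (SE 0.099, limma adjusted p = 0.705), which did not pass. Retnlb, the intestinal paralogue, was near background at 3.70 to 3.85. Of 6 genes of the resistin list 2 lay above 0 and 4 below, with a median of -0.065 (-0.030 without wild type 1 and -0.035 without knockout 2), and 0 passed (1 at an unadjusted p under 0.05 by limma).

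The partners of Rbp4 were dim in this tissue. Stra6, the retinol receptor that takes up retinol from Rbp4, lay between 3.98 and 4.16, and Ttr, which carries Rbp4 in the blood, between 4.31 and 4.42, with 4 and 3 of the 23 nonspecific controls above them. Their differences were -0.03 (SE 0.092) and 0.01 (SE 0.077). Of 11 genes of retinol transport and metabolism 5 lay above 0 and 6 below, with a median of -0.032 (0.0042 without knockout 1, -0.020 without wild type 2 and 0.040 without knockout 2), and 0 passed by limma (0 also at an unadjusted p under 0.05).

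Aplnr, the apelin receptor, was bright, with log2 values of 11.74 and 11.91 in knockouts and 11.79 and 11.69 in wild type, a difference of 0.09 (SE 0.088) with overlapping genotypes. In its second probe set the genotypes did not overlap, at 8.58 and 8.63 in knockouts and 8.44 and 8.33 in wild type. That difference was 0.22 (SE 0.074), and 17.8% of all probe sets separated in this direction. The counts below use the brightest probe set of each gene. Of the 4 genes of this list 3 lay above 0, and 0 passed by limma (0 also at an unadjusted p under 0.05). Endothelial markers, whose cells carry the receptor, had 13 of 15 members above 0 and a median of 0.15, which became 0.232 without knockout 1, 0.085 without wild type 2 and 0.069 without knockout 2, and 0 passed (1 at an unadjusted p under 0.05 by limma, Tie1 at 0.50).

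**Figure D4:**
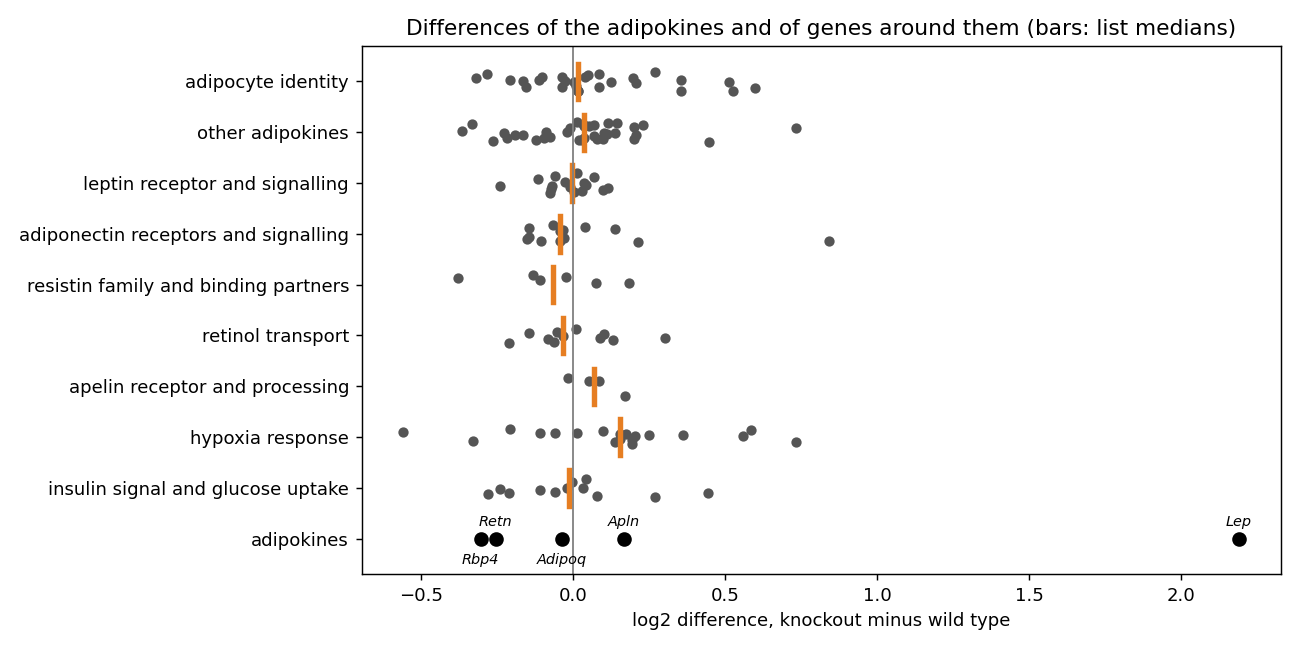
Log2 difference, knockout minus wild type (horizontal axis), of each gene (grey points) in 9 lists around the adipokines, with the list median as an orange bar, and of the 5 adipokines (black points, bottom row). Each list gene is drawn by its brightest probe set. Lep lies at 2.19, beyond every point of these lists, the largest of which is Ppara at 0.84. Dimmer probe sets, not drawn, reached 0.97 for Scd1 and 0.96 for Ppara. The list medians lie between -0.065 and 0.154.

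The genes around the adipokines without a named probe set were also measured. Blcap, the gene within which Nnat lies, had log2 values of 10.23 and 10.19 in knockouts and 9.90 and 10.00 in wild type, a difference of 0.27 (SE 0.073, limma adjusted p = 0.721). The 16 imprinted genes listed with it had a median of 0.032 (0.097 without knockout 1 and -0.098 without knockout 2), with 10 above 0. Of 10 genes listed for the alternative complement pathway, which the product of Cfd starts, 5 lay above 0. Masp1 had -0.43 and Cfb had 0.43. Other probe sets of Masp1 had -0.34, -0.21, -0.17 and 0.01. Of 9 genes of NAD synthesis and use, to which Nampt belongs, 6 lay above 0, with Nmnat3, an enzyme that completes NAD, at -0.47. In these 3 lists 0 genes passed by limma (3, 3 and 1 at an unadjusted p under 0.05).

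Insulin and low oxygen are both known to raise leptin in fat cells. Their part in the Lep values was not tested. In the insulin list 5 of 12 genes lay above 0, the median was -0.011 and Insr, the insulin receptor, had -0.28 (SE 0.116, limma adjusted p = 0.754). In the hypoxia list 14 of 19 genes lay above 0, with a median of 0.15. The genotypes did not overlap in 14 of the 19, or 73.7%, beside 37.6% of all genes, 11 with knockouts higher and 3 lower. In the insulin list this was so for 7 of 12, or 58.3%, 2 higher and 5 lower. Among the hypoxia genes Adm had 0.73. Egln3, an oxygen-sensing hydroxylase that is itself induced by low oxygen, had -0.56 (SE 0.069, limma adjusted p = 0.472). Pdk1, a brake on pyruvate oxidation, had -0.33. In both lists 0 genes passed by limma (3 and 7, or 25% and 36.8%, at an unadjusted p under 0.05, beside 7.36% of all genes). The hypoxia median was 0.104 without wild type 2 and 0.187 without wild type 1, and the insulin median -0.082 without knockout 2, -0.056 without wild type 1, -0.026 without wild type 2 and 0.012 without knockout 1.

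Marker lists of other cells are given beside Lep, and 0 of their genes passed the limma threshold. Over all genes 48.8% had a difference above 0 and 7.36% an unadjusted p under 0.05 by limma, as background for the counts that follow. All 10 measured thermogenic fat genes had a difference above 0, with a median of 0.71 and 8 of them at an unadjusted p under 0.05 by limma. Ucp1 was at 1.64 (SE 0.263, limma adjusted p = 0.653). The summed level of this list was 14.19 and 13.88 in knockouts and 13.31 and 13.38 in wild type, and knockout 1 was the higher knockout, whereas Lep was level in both. The thermogenic median was 0.46 without knockout 1, 0.99 without knockout 2, 0.62 without wild type 1 and 0.81 without wild type 2. In 8 of the 10 genes, or 80%, the genotypes did not overlap, with knockouts higher, beside 37.6% of all genes in either direction. Mammary epithelial markers lay below 0 in 17 of 18 genes (median -0.22, or -0.098 without knockout 2), with summed levels of 13.00 and 12.96 against 13.17 and 13.12, and macrophage markers in 16 of 16 (median -0.13, or -0.087 without knockout 1 and -0.200 without wild type 2), with 12.43 and 12.56 against 12.70 and 12.61. Preadipocyte and stromal markers lay above 0 in 11 of 12 genes (median 0.094, or 0.186 without knockout 1, 0.033 without knockout 2, 0.156 without wild type 1 and 0.057 without wild type 2). Skeletal muscle markers lay above 0 in 12 of 15 (median 0.15, or 0.43 without knockout 1 and -0.11 without knockout 2). The part of these cells in the Lep and Retn values was not tested.

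**Figure D5:**
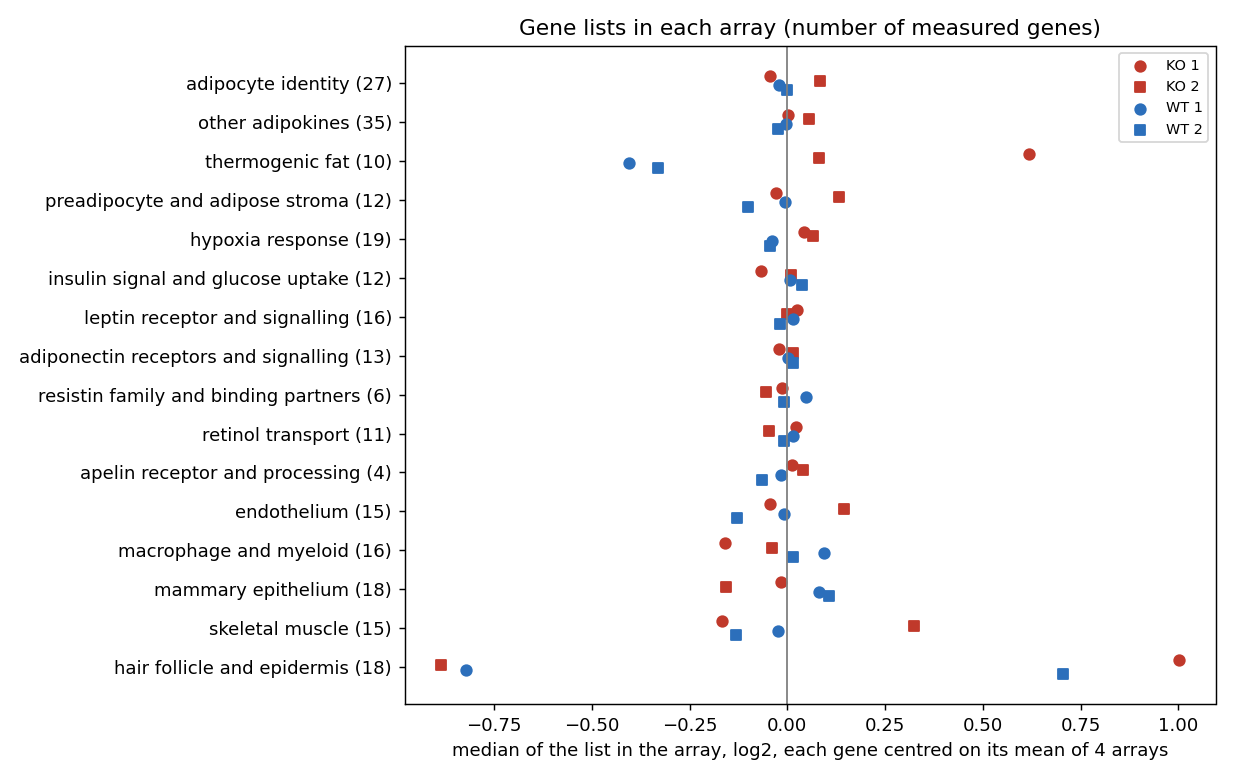
Median of each gene list in each array (horizontal axis, log2, every gene centred on its mean of 4 arrays) for knockout (KO, red) and wild-type (WT, blue) arrays, with circles for replicate 1 and squares for replicate 2. The fat-cell list stays between -0.045 and 0.084, the thermogenic list separates the genotypes, and the hair follicle and epidermis list separates knockout 1 and wild type 2 from the other 2 arrays.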

How the data were processed

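The authors deposited log2 expression values, 1 per probe set and array, computed with affy and RMA, per the submitters' processing notes; no version or setting is given in the sources used here. RMA forces the arrays to one distribution, so a shift common to most genes cannot be seen. Of 45141 rows, 104 array controls were left out. The platform annotation gave 28898 probe sets 1 gene symbol and 551 several, and did not list 15588; gene IDs matched RefSeq (GRCm38.p6) for 99.3% and changed 0 symbols. Array medians were 5.19 to 5.21, correlations between arrays 0.995 to 0.997, and 3′ minus 5′ signals of Gapdh 0.526 to 0.601.

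The 45037 remaining probe sets were fitted with limma 3.58.1 (lmFit, eBayes; R 4.3.3), two-sided and without covariates; SEs are moderated. The number of arrays limits the precision: the median SE was 0.081, and an exact permutation test cannot go below 0.333. A gene with several probe sets was represented by the brightest. The fit was checked on simulated data. The members and the 19 gene lists were chosen with earlier results of these data known. Named were all member probe sets, fixed receptors and partners, the nearest 5 patterns, and up to 3 genes of smallest p per list. Lipe, Fabp4, Pparg, Cebpa, Tchh, Jak2, Stat3 and Socs3 were named for their roles after their values were seen. Scd1, Fasn, Krt10 and Flg were also named after their values were seen. Alternatives were other scalings, brighter probe sets, other variance models, other uses of probe sets, the replicate number as a block, and each array left out.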

Additional observations from a re-analysis of the deposited data

How the results depend on the processing

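The 5 adipokine differences moved by less than 1 SD of their replicates under every scaling, filter, variance model and probe set rule tried, and Lep ran from 2.18 to 2.19 there. With 1 array left out, Lep ran from 1.43 to 2.95, Retn from -0.43 to -0.08, Adipoq from -0.092 to 0.022, Rbp4 from -0.75 to 0.14 and Apln from -0.25 to 0.59. The 2 calls over all probe sets became 5 with quantile normalization, median centring, a trended or a robust variance prior, or the brighter probe sets alone, 1 with the brightest probe set per gene, and 0 with the mean of probe sets. With 1 array left out they ran from 0 to 5, and the 5 without wild type 1 included Lep, in a fit where only the knockout arrays, 0.0064 apart for Lep, give the spread. Of the genes in the lists 0 passed under any alternative.

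Same-numbered arrays did not deviate together (r = -0.295 across probe sets, between the knockout and wild-type gaps), so the numbers were not taken as pairs. With the replicate block 0 probe sets passed (3131 at an unadjusted p under 0.05 by limma), and the Lep difference was 2.19 (SE 0.411). The block lowered the SE of Apln from 0.298 to 0.122 and raised that of Rbp4 from 0.320 to 0.382. A crossed block, chosen after the data were seen, also gave 0 calls (2558 at an unadjusted p under 0.05 by limma).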
